A study of Homo sapiens with 4 samples.

Results

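Interferon-induced genes and genes that sense double-stranded RNA were followed in the human glioblastoma cell line U87 MG after silencing of PELP1. The set was a list of 45 gene symbols, and all 45 were found among the 23228 symbols counted. They were grouped by role into 12 RNA sensors and adaptors, 5 factors of the IRF and STAT families, and 28 effectors. One group of 2 libraries came from cells transfected with a control siRNA and the other group of 2 libraries from cells transfected with PELP1 siRNA. An siRNA is itself a short RNA duplex, and it guides the cell's slicing machinery to a matching mRNA. Both groups were kept in DMEM with serum and transfected by means of oligofectamine, and RNA was isolated after 72 hours. The PELP1 protein is a coregulator of nuclear receptors. Because both groups received an siRNA and untransfected cells were not analysed here, the comparison shows only what differs between the siRNAs and not a response that both share. Nothing in the labels says that the libraries of a group came from separate cultures, so the p-values reflect the spread between these libraries alone, and that spread may be technical. In RNA from whole cultures, fewer cells that express a gene and less RNA per cell cannot be told apart.

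Cells recognise double-stranded RNA through the helicases RIG-I and MDA5, which signal through the mitochondrial adaptor MAVS, through the endosomal receptor TLR3, and through the kinase PKR and the oligoadenylate synthetases. The signal activates the transcription factors IRF3 and IRF7, which switch on interferon genes. Secreted interferon binds its receptor on the cell, and the kinases JAK1 and TYK2 then activate STAT2, which works with IRF9 in a complex that binds a promoter element named the interferon-stimulated response element (ISRE). The genes under this element encode antiviral effectors and many of the sensors themselves.

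The ISRE is a promoter element that many of these genes may share, so promoters of the members were searched for its core. The core is GAAA followed by any 2 bases and GAAA, and both strands were searched. Promoter sequences (250 bases before to 50 bases after the start) were found in RefSeq's table for 37 of the 45 members, and 21 of the 37 (56.8%) held a match. Over all 27305 promoters of the table the share was 3.65%. The match stood in 5 of 10 promoters of RNA sensors and adaptors, in 0 of 3 of IRF and STAT factors and in 16 of 24 of effectors. The windows below show 30 bases around the match nearest the start, with the match in capitals, for the 4 members with a match that passed the test below and for 3 that did not (IFIT3 and IFI44, paralogs of IFIT1 and IFI44L, and ISG15). They are written 5′ to 3′ on the strand of the gene, from the RefSeq table of GRCh38.p14. Each promoter matched its own chromosome in GRCh37 at 1 place, whose coordinates are given, and other chromosomes were not searched.
IFIT1 (GRCh37 chr10:91152267-91152296, plus strand): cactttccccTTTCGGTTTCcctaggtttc
IFIT3 (GRCh37 chr10:91087622-91087651, plus strand): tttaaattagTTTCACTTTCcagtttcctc
IFI44L (GRCh37 chr1:79085959-79085988, plus strand): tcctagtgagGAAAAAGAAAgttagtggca
IFI44 (GRCh37 chr1:79115446-79115475, plus strand): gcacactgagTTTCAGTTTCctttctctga
IFI6 (GRCh37 chr1:27998777-27998806, minus strand): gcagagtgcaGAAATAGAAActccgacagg
ISG15 (GRCh37 chr1:948760-948789, plus strand): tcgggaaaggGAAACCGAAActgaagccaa
TAP1 (GRCh37 chr6:32821590-32821619, minus strand): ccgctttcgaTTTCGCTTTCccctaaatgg
These letters are a match and not a measured binding site. Counted from the start that the RefSeq table gives, which differs from the GENCODE gene bounds printed below, the first base of the match is at -103 in IFIT1, -73 in IFI44L, -93 in IFI6 and -128 in TAP1. A match was present in 2 of 4 promoters of members that rose, 2 of 5 of members that fell and 13 of 23 of members that did not pass the test.

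Reads assigned to genes came to 18670162 to 22858988 per library. PELP1 was at 74.0 and 78.1 CPM (counts relative to the TMM-scaled library size) in the control libraries and at 15.2 and 17.7 CPM in the PELP1 siRNA libraries, a log2 fold change (called log2 change below) of -2.21 (SE 0.097, adjusted p = 8.32e-14). The libraries of the PELP1 siRNA pair differed more from each other than those of the control pair: the median absolute log2 difference within the pair was 0.136 against 0.071 over all genes tested, and 0.139 against 0.074 over the members tested. Of 8 markers of glioblastoma lines, 6 were tested and 4 were called lower with PELP1 siRNA. These were VIM (5610 to 7140 CPM), CD44 (1956 to 2483 CPM), EGFR (108 to 180 CPM) and NES (31.1 to 50.1 CPM). They make 66.7% of the 6, against 15.0% of all genes called lower. Whether these shares differ and the part of the markers in the results were not tested. The astrocyte markers GFAP (1.22 to 1.84 CPM) and S100B (0 to 1 count) and the neural stem cell factor SOX2 (0 to 2 counts) were near 0. Of 10 immune cell markers, 4 had no count, CD3E, LILRA4 and CLEC4C among them, and PTPRC had 1 to 2 counts in a library, while CD68 (385 to 427 CPM) and CD74 (190 to 250.1 CPM) passed the filter. CD74 was lower with PELP1 siRNA (log2 change -0.36, adjusted p = 1.96e-04) and CD68 was not called.

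No general rise or fall of the interferon-induced genes was measured. Of the 45 members, 40 passed the filter on low counts and 5 effectors did not. With PELP1 siRNA 4 of the 40 were higher, 7 were lower and 29 stayed under the threshold (adjusted p under 0.05, edgeR's quasi-likelihood test adjusted over all 13234 genes tested). Members were called in 27.5% of cases, against 27.9% of all genes tested. By direction, 10.0% of the members and 12.9% of all genes were higher, and 17.5% and 15.0% were lower. A share this near the background is no result about the set. The median log2 fold change was -0.070 over the members and 0.001 over all genes tested, and the median absolute log2 fold change was 0.190 against 0.180. Changes of at least 1.5-fold were measured in 4 members (OASL, IRF7, XAF1 and IFIT1), or 10.0%, against 9.85% of all genes. In 25 members the libraries of one group all lay on one side of the other group's, 10 higher and 15 lower, against 64.2% of all genes (32.0% higher and 32.3% lower). The summed level of the 45 members was 1494 and 1478 CPM with control siRNA and 1419 and 1374 CPM with PELP1 siRNA.

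**Figure D1:**
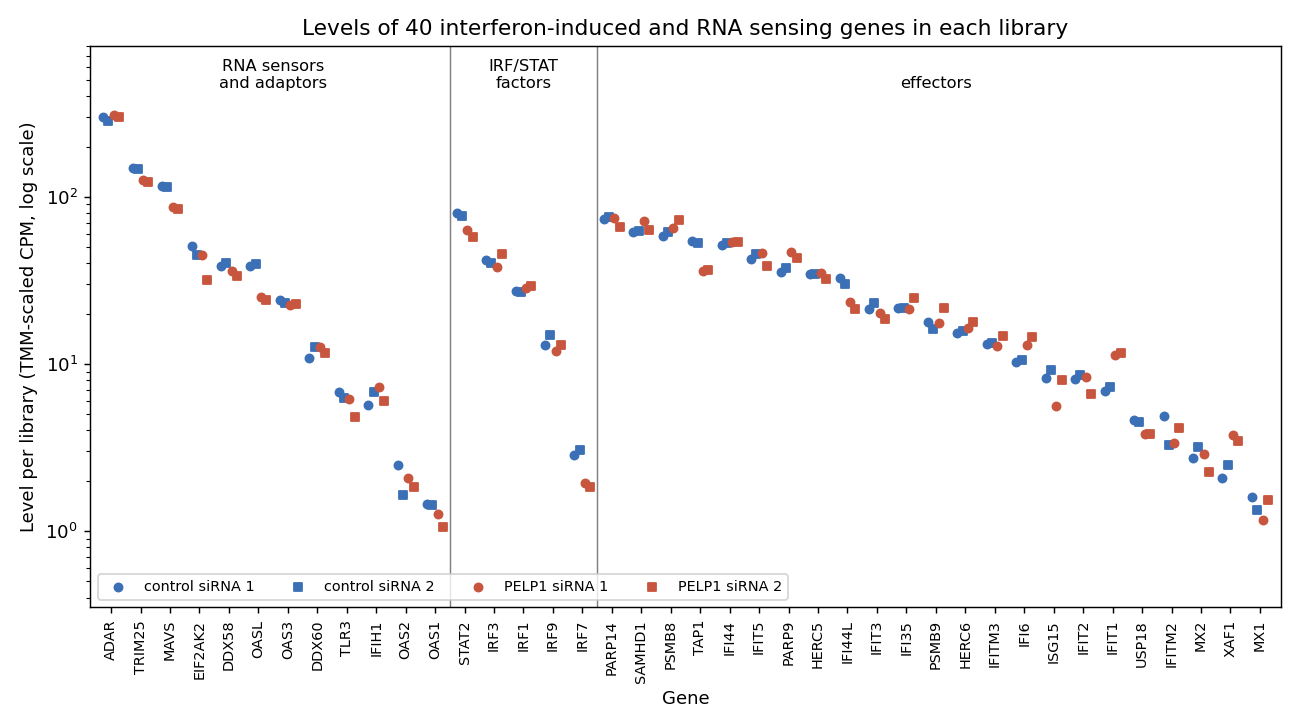
Level of each of the 40 members tested in the 4 libraries, as TMM-scaled CPM on a log axis, with genes ordered by their mean in the control libraries within each role. Points of a gene lie close together next to the spread between genes: ADAR stands near 300 CPM and MX1 between 1.17 and 1.60 CPM in every library.

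The members were present at a wide range of levels in the control siRNA libraries. Per kilobase of annotated exon (RPKM, from the mean of the control libraries), IFI44 stood highest at 25.6, followed by the RNA-editing enzyme ADAR at 23.8 and the immunoproteasome subunit PSMB8 at 17.3. The antiviral GTPases MX1 and MX2 stood at 0.082 and 0.203 RPKM, and the synthetases OAS1 and OAS2 at 0.110 and 0.184 RPKM. The order of IFI44 and ADAR is close: their libraries held 25.3 and 25.9 RPKM with control siRNA for IFI44, and 24.5 and 23.1 for ADAR. In RPKM, MX1, MX2, OAS1 and OAS2 were the lowest of the members tested. Other antiviral members stood higher, among them IFI6 at 11.1 and ISG15 at 10.1 RPKM. This order rests on the exon bases of all annotated transcripts, 12242 for ADAR against 2038 for IFI44. In mean control CPM, ADAR stood at 291, TRIM25 at 148, MAVS at 115 and IFI44 at 52.2. By the same measure XAF1 (2.28 CPM) stood below MX2 (2.95 CPM). The 5 members that did not pass the filter had few counts. RSAD2, which encodes the antiviral enzyme viperin, had 7 and 24 counts in the control libraries and 4 and 6 in the PELP1 siRNA libraries. The exonuclease ISG20 had 7 and 5 against 9 and 9 counts, and IFI27 had 1 and 1 against 0 and 5 counts. BST2, the virus-tethering protein tetherin, had 3 and 2 counts with control siRNA and 0 in both PELP1 siRNA libraries. IFITM1 had 0 counts in all 4 libraries, which allows a level of up to 0.134 to 0.158 CPM (3 counts of a library, counting error only). IFITM1, IFITM2 and IFITM3 are close paralogs, and reads with several alignments were not assigned to genes, so their levels are uncertain.

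RNA sensors and adaptors were lower in 3 of 12 cases and higher in 0, and 9 were not called (25.0% called, against 27.9% of all genes, of which 15.0% were lower). The 3 were OASL, MAVS and TRIM25, and 9 of the 12 had a negative log2 fold change (median -0.21). OASL, a relative of the oligoadenylate synthetases that lacks their enzyme activity and enhances RIG-I signalling, lies on chromosome 12 (GRCh37 121455566 to 121477049, minus strand). It was at 38.4 and 39.8 CPM in the control libraries and at 25.2 and 24.0 CPM in the PELP1 siRNA libraries. The groups did not overlap, and OASL fell by 37.04% (log2 change -0.67 ± 0.092 SE, adjusted p = 7.91e-06). MAVS, the adaptor that carries the signal of RIG-I and MDA5 from the mitochondrial surface, lies on chromosome 20 (3827446 to 3856770, plus strand). Its levels were 115 and 114 CPM with control siRNA and 86.6 and 84.0 CPM with PELP1 siRNA. Both PELP1 siRNA libraries were below both control libraries, and MAVS fell by 25.7% (log2 change -0.43 ± 0.071 SE, adjusted p = 7.24e-05). TRIM25, the ubiquitin ligase that acts on RIG-I, stood at 149 and 146 CPM with control siRNA and at 127 and 122 CPM with PELP1 siRNA (log2 change -0.25 ± 0.067 SE, adjusted p = 0.0071). The adjusted p of TRIM25 became 0.234 when control library 1 was left out and 0.159 when control library 2 was.

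The receptors that bind double-stranded RNA themselves did not pass the threshold. DDX58, which encodes RIG-I, was at 38.6 and 40.3 CPM with control siRNA and 35.8 and 33.8 CPM with PELP1 siRNA (log2 change -0.18 ± 0.089 SE, adjusted p = 0.134), and without PELP1 siRNA library 1 the log2 change was -0.22. IFIH1, which encodes MDA5, was at 5.67 and 6.78 against 7.26 and 6.01 CPM. TLR3 was at 6.76 and 6.29 against 6.19 and 4.79 CPM (adjusted p = 0.287). IFIH1 overlapped between the groups, and TLR3 did not. EIF2AK2, which encodes PKR, the kinase that halts translation on binding double-stranded RNA, had a value that depended on 1 library. The levels of EIF2AK2 were 51.0 and 44.6 CPM with control siRNA and 44.6 and 31.9 CPM with PELP1 siRNA (log2 change -0.32 ± 0.12 SE, adjusted p = 0.0594). Only PELP1 siRNA library 2 lay clearly below the others: the log2 fold change was -0.58 without PELP1 siRNA library 1 and -0.09 without PELP1 siRNA library 2. The adjusted p of EIF2AK2 was 0.0403 with limma-voom and 0.0022 with no filter on low counts, and without control library 2 the log2 fold change was -0.41. The synthetases OAS1, OAS2 and OAS3, which make a messenger that sets off RNA decay, had log2 fold changes of -0.30, -0.05 and -0.06 with adjusted p from 0.481 to 0.897. ADAR, which edits adenosine in double-stranded RNA, was at 299.8 and 283 CPM against 309 and 301 CPM (log2 change 0.07, adjusted p = 0.460). DDX60, a helicase related to RIG-I function, was at 10.9 and 12.6 against 12.6 and 11.7 CPM.

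**Figure D2:**
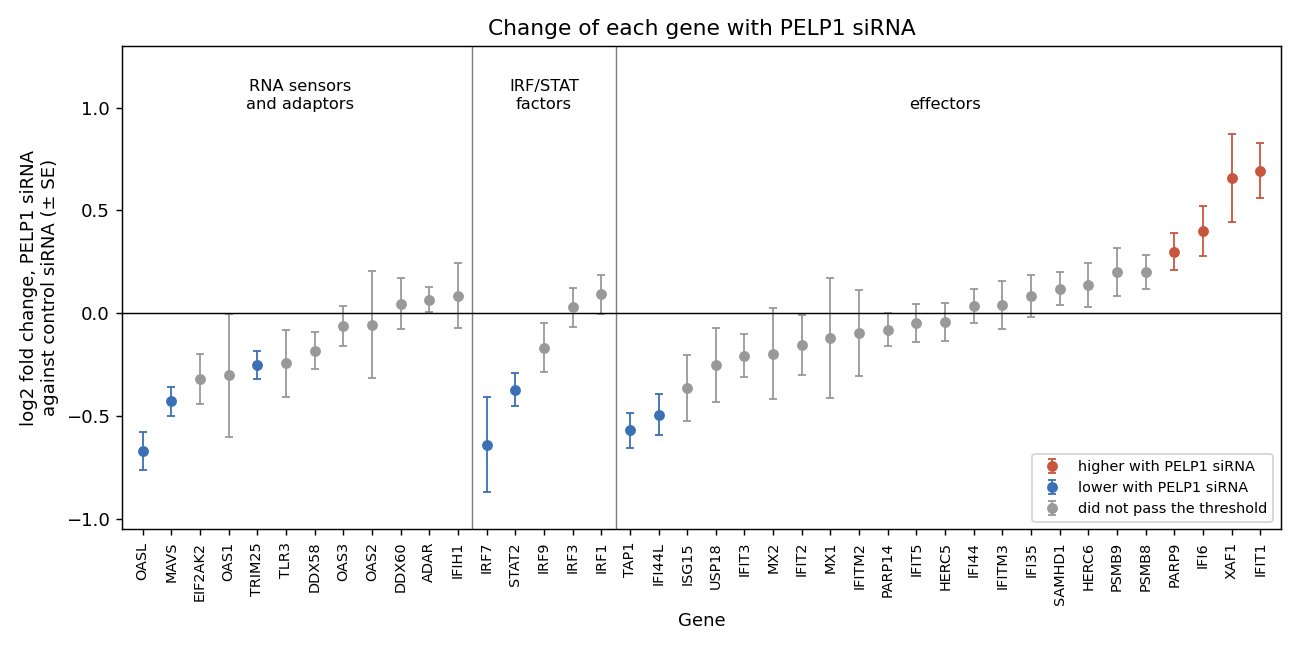
Log2 fold change of each of the 40 members with PELP1 siRNA against control siRNA, with bars of 1 SE, by role. Points in blue (7) were lower and in red (4) higher at an adjusted p under 0.05, and the 29 in grey did not pass; the red points are all effectors.

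Among the factors that carry the signal to the nucleus, STAT2 and IRF7 were lower and 3 were not called. The 2 make 40% of the 5 tested, against 15.0% of all genes called lower, and the difference was not tested. STAT2, a subunit of the complex that binds the ISRE, lies on chromosome 12 (56735381 to 56753987, minus strand) and stood at 80.5 and 76.4 CPM with control siRNA and at 63.6 and 57.6 CPM with PELP1 siRNA. The groups did not overlap, and STAT2 fell by 22.7% (log2 change -0.37 ± 0.079 SE, adjusted p = 0.0011, and 0.102 without control library 1). IRF7, which amplifies the interferon response, was low, at 55 and 68 counts with control siRNA and 38 and 35 counts with PELP1 siRNA, or 2.84 and 3.04 against 1.93 and 1.84 CPM (log2 change -0.64 ± 0.23 SE, adjusted p = 0.0404). The call of IRF7 did not hold in 8 of 12 alternative settings, among them DESeq2 (adjusted p = 0.246) and the omission of each library in turn (0.145 and 0.247 without control libraries 1 and 2, and 0.057 and 0.0855 without PELP1 siRNA libraries 1 and 2). IRF3, the factor that responds first to the sensors, stood at 41.7 and 39.99 against 37.8 and 45.5 CPM (log2 change 0.03, adjusted p = 0.854). IRF1 was at 27.4 and 26.8 against 28.6 and 29.2 CPM (0.09, adjusted p = 0.496). IRF9, the DNA-binding partner of STAT2, was at 13.1 and 14.8 against 12.0 and 12.9 CPM (-0.17, adjusted p = 0.317).

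Effectors were called in both directions. Of the 23 tested among 28, 4 were higher (IFIT1, XAF1, IFI6 and PARP9), 2 lower (TAP1 and IFI44L) and 17 not called (26.1% called, against 27.9% of all genes), with a median log2 fold change of -0.04. IFIT1, which binds viral RNA caps and blocks their translation, showed the largest rise of the members. It lies on chromosome 10 (91152303 to 91166244, plus strand). Its levels were 6.86 and 7.32 CPM with control siRNA and 11.4 and 11.6 CPM with PELP1 siRNA. Both PELP1 siRNA libraries stood above both control libraries, and IFIT1 rose by 61.6% (log2 change 0.69 ± 0.13 SE, adjusted p = 3.92e-04). Its relatives in the same gene cluster did not pass the threshold. IFIT2 was at 8.15 and 8.57 against 8.38 and 6.64 CPM (log2 change -0.15, adjusted p = 0.467), IFIT3 at 21.5 and 23.2 against 20.3 and 18.5 CPM (-0.21, adjusted p = 0.142), and IFIT5 at 42.2 and 45.3 against 46.0 and 38.7 CPM (-0.05, adjusted p = 0.742). With 1 library left out, the log2 change of IFIT3 ranged from -0.27 to -0.14. As a description, the ratio of IFIT1 to IFIT3 counts was 0.320 and 0.315 in the control libraries and 0.561 and 0.627 in the PELP1 siRNA libraries. IFIT1 and IFIT3 both hold the ISRE core shown above.

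XAF1, a protein that binds an inhibitor of apoptosis, was at 2.06 and 2.50 CPM with control siRNA and 3.76 and 3.48 CPM with PELP1 siRNA (log2 change 0.66 ± 0.21 SE, adjusted p = 0.0236). IFI6, a small protein of mitochondria and the endoplasmic reticulum, was at 10.2 and 10.6 against 13.05 and 14.5 CPM (0.40 ± 0.12 SE, adjusted p = 0.0159). PARP9, which works with the ubiquitin ligase DTX3L, was at 35.4 and 37.7 against 47.0 and 43.1 CPM (0.30 ± 0.090 SE, adjusted p = 0.0142). In all 3 genes both PELP1 siRNA libraries stood above both control libraries, but the calls were less stable than that of IFIT1. Without control library 1 their adjusted p was 0.258 (XAF1), 0.195 (IFI6) and 0.313 (PARP9), and without control library 2 it was 0.0638, 0.117 and 0.124. DESeq2 gave 0.175 for XAF1 and 0.0963 for IFI6, and XAF1 had 0.0539 without PELP1 siRNA library 1. XAF1 shares 38.3% of its annotated exon bases with PRAL on the opposite strand and IFI6 shares 23.1% with LINC02574 on its own strand. Reads in shared bases may have been left out as ambiguous where the authors' annotation held both genes of a pair. Where it held XAF1 or IFI6 alone, reads of the pair may be mixed. The same holds, among others, for DDX58 (43.2% shared on its own strand), IRF9 (23.9%) and the marker CD68 (81.6%), and for IFI30 (42.5%) and IL10RB (21.6%) below. On the opposite strand it holds for IRF1 (22.9%), IRF3 (19.3%) and PSMB8 (17.3%).

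IFI44L and TAP1 were the effectors that fell. IFI44L was at 32.7 and 30.1 CPM with control siRNA and at 23.4 and 21.2 CPM with PELP1 siRNA, and fell by 28.9% (log2 change -0.49 ± 0.098 SE, adjusted p = 5.37e-04). Its neighbour and paralog IFI44 stayed between 51.6 and 53.7 CPM in the 4 libraries (log2 change 0.04 ± 0.082 SE, adjusted p = 0.784). The ratio of IFI44L to IFI44 counts was 0.634 and 0.571 with control siRNA and 0.435 and 0.398 with PELP1 siRNA. Both genes lie on the plus strand of chromosome 1, IFI44L from 79085587 to 79111830 and IFI44 from 79115481 to 79129763.

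TAP1, a subunit of the transporter that carries peptides to MHC class I molecules, was at 54.2 and 53.2 CPM with control siRNA and at 35.9 and 36.4 CPM with PELP1 siRNA. The groups stood far apart for their spread (53.7 ± 0.714 against 36.2 ± 0.330 CPM, mean ± SD, n = 2), and TAP1 fell by 32.6% (log2 change -0.57 ± 0.085 SE, adjusted p = 2.12e-05). PSMB9, an immunoproteasome subunit read from the opposite strand beside TAP1 on chromosome 6, was at 17.9 and 16.2 against 17.5 and 21.8 CPM (log2 change 0.20 ± 0.12 SE, adjusted p = 0.205). PSMB8, the other immunoproteasome subunit there, was at 58.7 and 61.6 against 65.2 and 73.1 CPM (0.20 ± 0.082 SE, adjusted p = 0.0699). Both subunits were highest in PELP1 siRNA library 2. With 1 library left out the log2 fold change ranged from 0.041 to 0.357 for PSMB9 and from 0.121 to 0.284 for PSMB8. PSMB8 passed with scaling by total counts (adjusted p = 0.0282). TAP1 shares 14.2% of its exon bases with PSMB8-AS1 on the opposite strand, and the strand setting of the counting is not given in the sources used here.

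The remaining effectors did not pass the threshold. ISG15, the ubiquitin-like protein that is attached to other proteins in interferon-treated cells, was at 8.25 and 9.24 CPM with control siRNA and 5.58 and 8.06 CPM with PELP1 siRNA (log2 change -0.36 ± 0.16 SE, adjusted p = 0.0960). The value of ISG15 rested on PELP1 siRNA library 1: without PELP1 siRNA library 2 the log2 fold change was -0.65, and without PELP1 siRNA library 1 it was -0.12. USP18, which removes ISG15 from proteins, was at 4.59 and 4.46 against 3.81 and 3.79 CPM (-0.25, adjusted p = 0.318), and HERC5, the ligase that attaches ISG15, at 34.8 and 34.7 against 35.2 and 32.3 CPM (-0.04, adjusted p = 0.773). HERC6 was at 15.3 and 15.8 against 16.3 and 17.8 CPM (0.14, adjusted p = 0.372). SAMHD1, which breaks down nucleotides needed by viruses, was at 61.8 and 62.8 against 72.0 and 63.4 CPM (0.12, adjusted p = 0.291). PARP14 was at 73.2 and 75.6 against 74.7 and 66.1 CPM (-0.08, adjusted p = 0.491). With 1 library left out the log2 fold change ranged from 0.029 to 0.213 for SAMHD1 and from -0.168 to 0.010 for PARP14. MX1 (31 and 30 against 23 and 29 counts), MX2 (53 and 71 against 57 and 43 counts), IFI35 (21.7 and 21.6 against 21.2 and 24.7 CPM), IFITM2 (94 and 73 against 66 and 79 counts) and IFITM3 (13.2 and 13.4 against 12.7 and 14.6 CPM) overlapped between the groups.

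Of the 11 members past the threshold, OASL, TAP1, MAVS, IFI44L and IFIT1 were called in all 13 alternative settings tried, and TRIM25, STAT2, IRF7, IFI6, XAF1 and PARP9 were not. None of the 11 changed direction in any of them. Calls over the whole table depended on the control pair: 1 member was higher without either control library (5 lower without control library 1 and 6 without control library 2), when 10.9% and 12.5% of all genes were called. Without PELP1 siRNA library 1, 5 members were higher and 10 lower, and without PELP1 siRNA library 2, 5 were higher and 8 lower, when 41.0% and 38.8% of all genes were called. Each fit without a library takes the spread of its remaining sample from the other group. DESeq2 called 2 members higher and 6 lower, with 19.3% of all genes called.

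**Figure D3:**
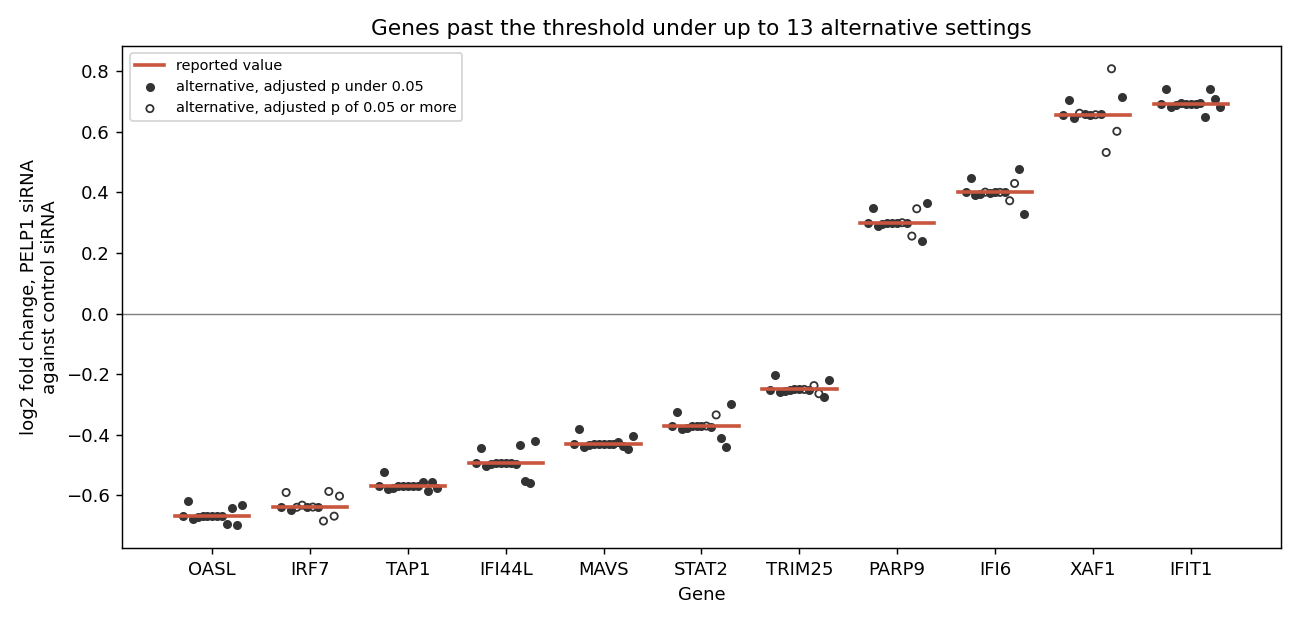
Log2 fold change of the 11 members past the threshold: the red line is the reported value and each point an alternative setting, filled where the adjusted p was under 0.05 and open where it was not. OASL, TAP1, MAVS, IFI44L and IFIT1 have only filled points.

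Other genes of the pathway were read from the same fit, from 6 lists that hold 128 genes, all found among the symbols. Of these, 93 were tested, with 14 that rose, 14 that fell and 65 not called (30.1% called, against 27.9% of all genes). With scaling by total counts, 20 were higher and 11 lower. Over all genes that scaling gave 2272 higher and 1597 lower, against 1712 and 1980 as reported.

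Transcripts of the interferon genes themselves were not detected in these libraries, apart from 2 reads. Of 21 genes of type I, II and III interferons, 20 had 0 counts in all 4 libraries, IFNB1 among them, and IL29 had 2 counts in control library 1 alone. A count of 0 allows up to 0.134 to 0.158 CPM (3 counts of a library). None of the 21 could be tested. Of the 20, 16 lie in a stretch of chromosome 9 where other genes, MTAP among them, also had 0 counts (described in the last section). Receptor subunits for interferon were counted at 17.1 CPM or more in the control libraries, except IL28RA, the specific subunit for type III interferons, which had 3 and 4 counts with control siRNA and 6 and 2 with PELP1 siRNA and was not tested. Of 9 tested genes of receptors and the signalling proteins linked to them, 5 rose, 1 fell and 3 were not called. The 5 make 55.6%, against 12.9% of all genes called higher, and whether these shares differ was not tested. The receptor subunits of type I interferon rose, IFNAR1 from 158 and 156 to 192 and 177 CPM (log2 change 0.23 ± 0.067 SE, adjusted p = 0.0124) and IFNAR2 from 22.1 and 22.1 to 28.4 and 26.7 CPM (0.32 ± 0.096 SE, adjusted p = 0.0159). IFNGR2, a receptor subunit for interferon gamma, rose from 17.1 and 20.2 to 25.0 and 26.3 CPM (0.46 ± 0.10 SE, adjusted p = 0.0020). Its partner IFNGR1 was at 25.7 and 28.9 against 23.5 and 24.03 CPM, lower in both PELP1 siRNA libraries, and was not called (-0.20, adjusted p = 0.132). IL10RB, the subunit shared by the receptors of type III interferons and interleukin-10, rose from 55.9 and 61.9 to 74.0 and 73.8 CPM (0.33 ± 0.080 SE, adjusted p = 0.0033). TYK2, the kinase bound to IFNAR1, fell from 79.4 and 75.8 to 58.4 and 62.5 CPM (-0.36 ± 0.078 SE, adjusted p = 0.0012). These changes were small, and without control library 1 the adjusted p was 0.227 (IFNAR1), 0.209 (IFNAR2), 0.159 (IFNGR2), 0.265 (IL10RB) and 0.111 (TYK2). Without control library 2 it was 0.264 for IFNAR1 and 0.193 for IFNAR2, and DESeq2 gave 0.0683 for IFNAR2.

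Below the sensors, 1 of 17 tested genes was higher and 0 lower (5.88% called, against 27.9% of all genes). The 1 was TRAF3, a ubiquitin ligase between MAVS and the kinase TBK1, at 82.7 and 83.1 against 99.6 and 92.6 CPM (log2 change 0.21 ± 0.074 SE, adjusted p = 0.0333). The adjusted p of TRAF3 was 0.360 and 0.323 without control libraries 1 and 2 and 0.0687 with DESeq2. MB21D1 and ZBP1, which encode the DNA sensor cGAS and a sensor of Z-form nucleic acid, had 0 counts, and TMEM173, which encodes the adaptor STING, had 2 to 5 counts in a library. Of 14 negative regulators, 2 rose, 3 fell and 9 were not called (35.7% called, against 27.9% of all genes). CYLD, a deubiquitinase that acts on RIG-I, fell from 231 and 232 to 155 and 136 CPM (log2 change -0.67 ± 0.070 SE, adjusted p = 1.41e-07), and TNFAIP3, an ubiquitin-editing enzyme, fell from 44.6 and 43.97 to 32.1 and 31.9 CPM (-0.47 ± 0.088 SE, adjusted p = 3.27e-04). ATG5, an autophagy protein that limits RIG-I signalling, rose from 97.96 and 101 to 126 and 120 CPM (0.31 ± 0.070 SE, adjusted p = 0.0020, and 0.155 and 0.0728 without control libraries 1 and 2). NLRX1, a mitochondrial protein named as an inhibitor of MAVS, rose from 15 and 14 to 23 and 31 counts (1.00 ± 0.34 SE, adjusted p = 0.0318). The adjusted p of NLRX1 was 0.0999 and 0.253 without control libraries 1 and 2 and 0.205 without PELP1 siRNA library 2.

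**Figure D4:**
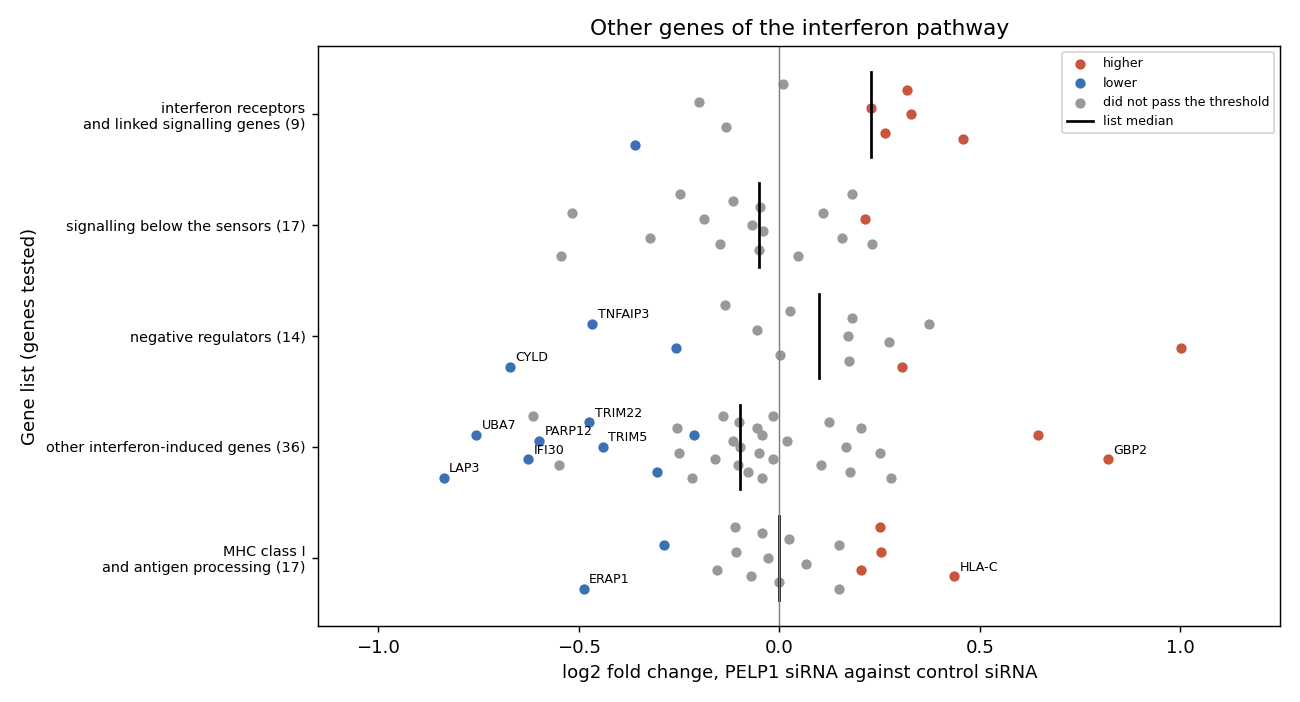
Log2 fold change of the 93 other genes of the pathway with PELP1 siRNA against control siRNA, 1 point a gene, by list; black bars are list medians and genes with an adjusted p under 0.0005 are named. The receptor list has a median of 0.23, and the other 4 lists have medians between -0.10 and 0.10.

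Of 36 other interferon-induced genes tested, 2 rose, 8 fell and 26 were not called (5.56% higher and 22.2% lower, against 12.9% and 15.0% of all genes; the difference from all genes was not tested). GBP2, a guanylate-binding protein, rose from 24.1 and 25.7 to 44.5 and 43.5 CPM (log2 change 0.82 ± 0.091 SE, adjusted p = 3.73e-07). Its neighbour GBP1 was at 13.6 and 12.7 against 16.4 and 14.8 CPM (0.25, adjusted p = 0.107). LAP3, a leucine aminopeptidase, fell from 116 and 121 to 67.4 and 65.5 CPM (-0.84 ± 0.073 SE, adjusted p = 8.48e-09). IFI30, a thiol reductase of lysosomes, fell from 164 and 167 to 104 and 110.5 CPM (-0.63 ± 0.069 SE, adjusted p = 3.00e-07).

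Among 17 tested genes of MHC class I and antigen processing, 4 rose, 2 fell and 11 were not called (35.3% called). Over all genes tested 27.9% were called, and the difference was not tested. HLA-C rose from 153 and 131 to 175 and 209 CPM (log2 change 0.44 ± 0.082 SE, adjusted p = 3.00e-04). HLA genes share much sequence, so their counts of uniquely aligned reads are uncertain. Without control library 2 the adjusted p was 0.0573 for HLA-C. ERAP1, the aminopeptidase that trims peptides for MHC class I, fell from 106 and 104 to 79.5 and 70.1 CPM (-0.49 ± 0.077 SE, adjusted p = 4.20e-05), beside the fall of TAP1. CANX, which encodes the chaperone calnexin, fell from 1705 and 1783 to 1532 and 1328 CPM (-0.29 ± 0.066 SE, adjusted p = 0.0021, and 0.112 without control library 2).

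A short word of the 3′ UTR was also looked up in the members, because an siRNA can pair through its seed with other mRNAs that share a few bases with its target. The words CTCAGTT and GCCTTGA are the 2 words of 7 bases in the PELP1 mRNA whose share differed most between genes lower by at least 1.5-fold and genes not past the threshold, so they were chosen on these same fold changes. At least 1 of these words was found in the 3′ UTR of 3 of the 7 members that fell (MAVS, IFI44L and TAP1, all with GCCTTGA), of 1 of the 4 that rose (PARP9, with both) and of 4 of the 29 that did not pass. Over the 12253 genes tested with an annotated 3′ UTR the share was 27.1%, and over the genes lower by at least 1.5-fold, on which the words were chosen, it was 45.2%. The choice of the words itself sets these shares apart, so nothing is read from the members' count. The 3′ UTR is 9979 bases in MAVS, 4339 in IFI44L and 373 in TAP1. The part of these words in the changes was not tested.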

How the data were processed

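RNA from 4 libraries (2 control siRNA, 2 PELP1 siRNA) was analysed. The authors deposited whole-number read counts per gene symbol, without normalization, per the values of the files. TruSeq libraries were sequenced from one end over 50 bp, per the labels' protocols. The tools were CASAVA 1.8.2, TopHat2 2.0.8b and HTSeq on hg19 (GRCh37), per the submitters' processing notes. Not given in the sources used here are HTSeq's version and strand setting, the annotation release and the sequences of the siRNAs. The last 5 lines of each file are counter summaries (36.0 to 37.6% of a file's total) and were dropped, so gene counts came to 18670162 to 22858988 per library. Counting error limits the precision of genes with few counts, and differences between libraries limit that of the others.

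Of 23228 symbols, 13234 passed filterByExpr (minimum count 10, minimum total 15). The fit used edgeR 4.0.16 in R 4.3.3 (TMM scaling, robust quasi-likelihood test, group as the only term), with Benjamini-Hochberg adjustment over all genes tested and a threshold of 0.05. Every adjusted p is from this test unless DESeq2 1.42.0 or limma-voom (limma 3.58.1) is named. The SE is the log2 fold change divided by the square root of F. RPKM is CPM per kilobase of the union of exons in GENCODE v44lift37, which also gave coordinates and shared exon bases, and UTRs are the longest annotated per gene. Alternatives were other scalings, filters and tests, a minimum fold of 1.2, a replicate block and the omission of each library. The script was tested on simulated data. Members, lists and tests were chosen with earlier results of these data known. Named were all 45 members, PELP1, IFNAR1, IFNAR2, IFNB1 and for each pathway list and direction the 2 called genes of smallest adjusted p; GBP1, IFNGR1, IL28RA, the markers, the listed genes near 0 counts and the neighbours in the closing section were named after their values were seen. A few genes that this rule or the marker lists name are counted with their lists but are not reported here.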

Additional observations from a re-analysis of the deposited data

How the results depend on the processing

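The members called numbered 4 higher and 7 lower. Against a minimum fold of 1.2 there were 1 higher and 4 lower, and 2 higher and 8 lower among the other pathway genes (14 and 14 as reported). At that minimum 8.85% of all genes were called. DESeq2 called 2 members higher, with 19.3% of all genes called. With 1 library left out, the members numbered 1 to 5 higher and 5 to 10 lower, and the pathway genes 3 to 21 higher and 10 to 24 lower, with 24 without PELP1 siRNA library 1. Over all genes the calls then ranged from 523 to 2724 higher and from 943 to 2804 lower, against 1712 and 1980 as reported.

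The sign turned in 12 of the 40 members tested under at least 1 alternative, all of them members that had not passed the threshold. With 1 library left out the log2 fold change ranged from -0.056 to 0.226 for IFIH1, -0.052 to 0.158 for DDX60, -0.333 to 0.249 for OAS2, -0.106 to 0.162 for IRF3, -0.331 to 0.0057 for IFIT2, -0.177 to 0.075 for IFIT5, -0.023 to 0.195 for IFI35, -0.317 to 0.068 for MX1, -0.101 to 0.024 for HERC5, -0.168 to 0.010 for PARP14, -0.370 to 0.202 for IFITM2 and -0.057 to 0.142 for IFITM3. Scaling by total counts, which moved the median of all genes from 0.001 to 0.049, gave 0.00019 for IFIT5 and 0.0069 for HERC5. The replicate numbers of the labels did not pair the libraries (correlation of deviations -0.048 between libraries numbered 1), and a fit with the replicate block called 4 members higher and 8 lower, and 12 pathway genes higher and 12 lower. In that fit 27.1% of all genes were called. EIF2AK2 was called in it (adjusted p = 0.0058) and TRAF3 was not (adjusted p = 0.0534). Genes of few counts, such as OAS1, OAS2 and MX1, carry an SE of 0.26 to 0.30, so that only large changes could pass. The cause of these shifts was not tested beyond the fewer libraries or the higher fold that each setting itself brings.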

Other observations

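Of the 20 interferon genes without counts, 16 lie in a longer stretch of chromosome 9 in which none of the protein-coding genes listed had a count. From KIAA1797 (start at 20658308, GRCh37) to DMRTA1 (end at 22455739), 23 protein-coding genes in a row had 0 counts in all 4 libraries. They include IFNB1, IFNW1, IFNE and the genes of interferon alpha, and also KLHL9, MTAP, CDKN2A and CDKN2B, of which MTAP encodes an enzyme of methionine salvage and CDKN2A and CDKN2B encode inhibitors of cyclin-dependent kinases. On one side MLLT3 had 1 count in all, and on the other ELAVL2 had 204. DDX58, farther along the same chromosome (32455300 to 32526206), was counted at 642 to 904 reads per library. RPS6, before the stretch, had 7184 to 9820 reads per library.

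The 4 receptor genes that were higher with PELP1 siRNA, IFNAR2, IL10RB, IFNAR1 and IFNGR2, are neighbours on chromosome 21 (34577587 to 34851655, GRCh37), and each was higher with adjusted p from 0.0020 to 0.0159. The genes beside and after them differed in direction. TMEM50B overlaps IFNGR2 on the opposite strand, and 15% of the exon bases of IFNGR2 are shared with it. TMEM50B (log2 fold change -0.31, adjusted p = 0.0521) and DNAJC28 (0.45, adjusted p = 0.162) were not called, while GART (adjusted p = 7.27e-04), SON (0.0429) and CRYZL1 (0.0055) were lower. ATP5O, at the far end, was higher (0.41, adjusted p = 5.54e-05). Of 12 protein-coding genes tested in the window around the receptors, 5 were higher and 3 lower. Over all genes tested 12.9% were higher and 15.0% lower, and the difference from all genes was not tested. The window was chosen after the values were seen.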
